A study of Mus musculus with 20 samples.

Results

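The 9 genes described here encode transcription factors that establish or maintain the identity of microglia, the resident macrophages of the brain: Spi1, Sall1, Sall3, Mef2a, Mef2c, Irf8, Runx1, Maf and Cebpa. They were chosen by name. Each was represented by 1 probe set annotated to that gene symbol and no other, so 9 of the 19751 genes measured were members. None had another probe set. Microglia were sorted by flow cytometry from mice aged 8.5 months, littermates of 4 genotypes, and their RNA was hybridised to one-colour microarrays. WT mice (4 arrays) carried neither alteration. Trem2-/- mice (4 arrays) lacked Trem2, a lipid-sensing receptor of microglia. 5XFAD mice (5 arrays) carried mutant human amyloid precursor protein and presenilin transgenes, driven by a neuronal promoter, and form amyloid plaques. Trem2-/-5XFAD mice (6 arrays) combined both. One further array, whose title and genotype label disagree, entered no comparison, so 19 of 20 arrays were compared.

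In microglia, the ETS factor PU.1, encoded by Spi1, opens myeloid enhancers together with IRF8, RUNX1 and C/EBP alpha. These lineage factors are shared with other myeloid cells. Sall1, a zinc finger factor, is in the adult brain's immune cells largely restricted to microglia, where its loss moves the cells towards an inflammatory state. MEF2 factors and MAF act beside PU.1 at enhancers of mature microglia.

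Trem2 was read first, as a check of the genotype labels. Its values lay between 11.14 and 11.80 on the log2(intensity + 1) scale, the scale of all levels here, in WT and 5XFAD arrays and between 6.75 and 7.60 in both Trem2-/- groups. The 9 measured markers of microglia were above the 40th percentile of the array in all assigned arrays. Their mean was nevertheless lower in 5XFAD (10.84 to 11.06) than in WT (11.40 to 11.63), Trem2-/- (11.39 to 11.46) or Trem2-/-5XFAD (11.27 to 11.33). Of 9 measured lymphocyte markers 6 stayed below the 40th percentile on every array, Cd3d, Cd79a and Ms4a1 among them, and 2 were above it on every array. The mean of 10 astrocyte markers was higher in every 5XFAD array (5.45 to 5.86) than in any WT (5.11 to 5.24), Trem2-/- (4.92 to 5.09) or Trem2-/-5XFAD array (5.10 to 5.41). The markers did not all move one way: of 8 tested in 5XFAD against WT, 2 were called higher and 1 lower. Gfap, the astrocyte filament gene, was 2.16 ± 0.18 higher in 5XFAD than in WT, while Slc1a3 was 0.73 ± 0.17 lower. From 5XFAD to Trem2-/-5XFAD, 3 of the 8 were called lower and 0 higher, Gfap by 0.76 ± 0.16. Markers of other brain cells, astrocytes included, entered 1 alternative as a covariate, and their part in the results was not tested further. The mean of the neutrophil markers lay between 3.86 and 5.30, apart from 2 arrays, Trem2-/- 1 (5.88) and Trem2-/-5XFAD 1 (5.89). Xist, the transcript of the inactive X chromosome, was high in 3 of 4 WT, 3 of 4 Trem2-/-, 1 of 5 5XFAD and 0 of 6 Trem2-/-5XFAD arrays, so sex was unevenly spread over the genotypes. Salivary gland markers averaged 5.31 to 5.61 in the first 2 arrays of both WT and 5XFAD and at most 4.51, in Trem2-/- 3, elsewhere. One of these transcripts, Mucl2, also read 9.65 in Trem2-/- 3, 7.67 in Trem2-/- 2 and 6.72 in WT 4. Each assigned array was above its 40th percentile for all 9 factors, so all 9 passed the filter on low values and were tested among 12728 genes.

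The factors fell into those lower in 5XFAD than in WT microglia and those for which this difference did not pass the test. In 5XFAD against WT, Maf, Sall1 and Mef2a were lower and the other 6 factors did not pass (limma, adjusted p under 0.05). That is 3 of 9 members, where 15.0% of all tested genes were called, 8.23% higher and 6.77% lower. Each of the 3 had all 5XFAD arrays below all WT arrays, a separation seen in 6.27% of genes. The same 3 factors were higher in Trem2-/-5XFAD than in 5XFAD, again 3 of 9, where 7.68% of all genes were called, 3.21% higher and 4.46% lower. Only Maf had all its Trem2-/-5XFAD arrays above all 5XFAD arrays, as did 3.03% of genes. The 2 comparisons share the 5XFAD arrays, so an array that is low there enters both. The second set of calls was less stable than the first for Sall1 and Mef2a, as given with each gene. In bulk samples, fewer cells that express a gene and less RNA of it per cell cannot be told apart.

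**Figure D1:**
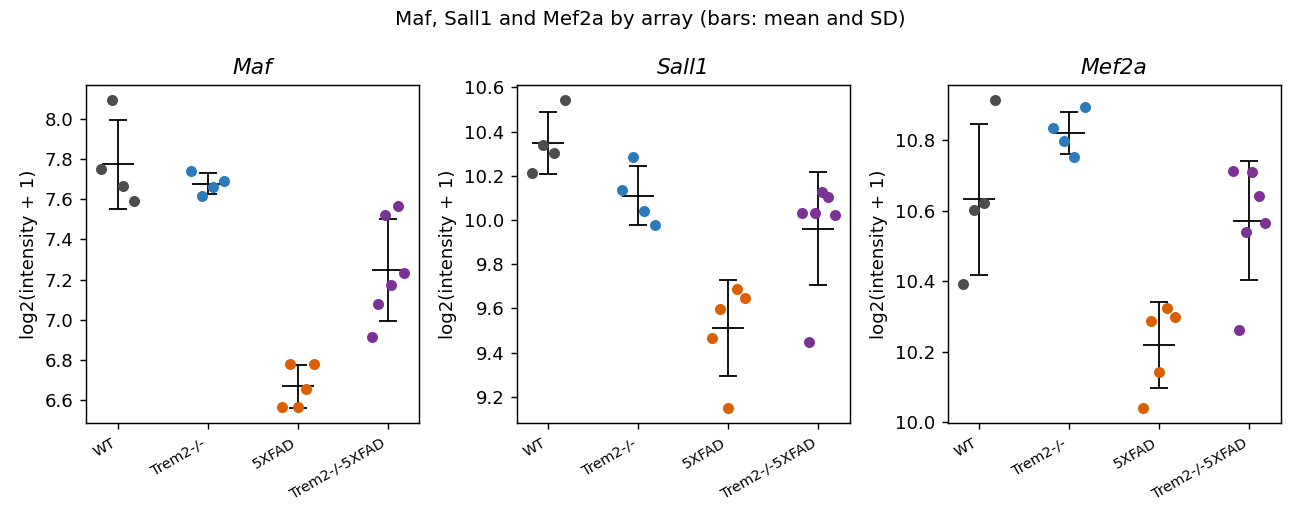
Level of Maf, Sall1 and Mef2a in each assigned array (points), on the log2(intensity + 1) scale, by genotype; horizontal bars are group means and whiskers SD (n = 4, 4, 5 and 6). For all 3 genes the 5 5XFAD arrays lie below every WT array. The Trem2-/-5XFAD arrays lie higher than 5XFAD, apart from the Sall1 and Mef2a values of Trem2-/-5XFAD 2.

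Maf encodes c-MAF, a large bZIP factor of macrophages. It read 7.75, 8.09, 7.66 and 7.59 in the 4 WT arrays and 7.74, 7.62, 7.66 and 7.69 in the 4 Trem2-/- arrays. It read 6.57, 6.78, 6.57, 6.66 and 6.78 in the 5 5XFAD arrays. In Trem2-/-5XFAD the lowest array read 6.92, the median was 7.20 and the highest was 7.57. The 5XFAD arrays were thus all below the WT arrays, and the Trem2-/-5XFAD arrays lay between these groups with no overlap on either side. The mean level was 7.77 ± 0.22 in WT (SD, n = 4), 6.67 ± 0.11 in 5XFAD (SD, n = 5) and 7.25 ± 0.25 in Trem2-/-5XFAD (SD, n = 6). Maf fell by 1.10 ± 0.13 (SE) in 5XFAD against WT, a 2.15-fold lower level (limma, adjusted p = 2.9e-06). It was called in this comparison under all 37 alternative settings, with differences from -1.39 to -0.96. Many of these settings, such as leaving out an array of another group, cannot move the difference itself. They change only its error or its adjusted p. The same holds for the counts of alternatives given below. Against 5XFAD, it rose in Trem2-/-5XFAD by 0.58 ± 0.12 (SE), 1.49-fold (limma, adjusted p = 0.00279), and was called under 36 of 37 alternatives.

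Maf is also expressed by border macrophages, the perivascular and meningeal macrophages that a microglial sort can include, and their markers moved beside it. The 14 border macrophage markers averaged 5.09 to 5.72 in 5XFAD, 5.65 to 6.53 in WT, 6.09 to 7.17 in Trem2-/- and 6.01 to 6.60 in Trem2-/-5XFAD. In 5XFAD against WT, 4 of 13 tested markers were lower and 1 higher. The lower ones included the mannose receptor Mrc1 (-1.05 ± 0.30) and the scavenger receptor Stab1 (-0.98 ± 0.15). Of the same 13, 9 were higher in Trem2-/-5XFAD than in 5XFAD, Mrc1 by 1.28 ± 0.28 and Stab1 by 0.91 ± 0.13 (limma, adjusted p = 0.00460 and 9.4e-05). With the mean of these markers as a covariate, chosen after the data were seen, the fall of Maf in 5XFAD remained called. Its rise in Trem2-/-5XFAD was then 0.42 ± 0.16 (SE), against 0.58 ± 0.12 in the main fit, and no longer passed (limma, adjusted p = 0.197). The rise of Sall1 was then 0.41 ± 0.18, against 0.45 ± 0.12, and that of Mef2a 0.41 ± 0.15, against 0.35 ± 0.10. Neither passed. Over all tested genes, 416 were called in this comparison with the covariate and 977 without it. The marker means of the 2 groups did not overlap, so this fit can tell markers from genotype only poorly. Within WT, Maf was highest in the array with the highest border macrophage mean, WT 2, at 8.09 and 6.53. In Trem2-/-, whose border macrophage means were the highest of the 4 groups, Maf did not exceed 7.74. The part of these cells in the difference was otherwise not tested.

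**Figure D2:**
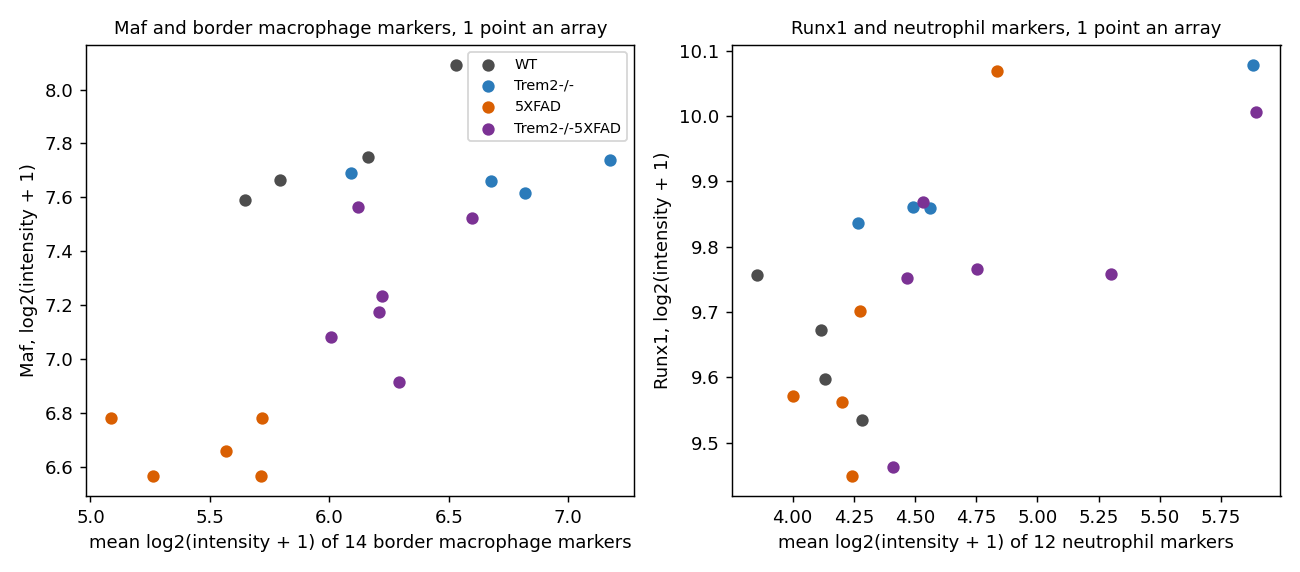
Left, Maf against the mean of 14 border macrophage markers; right, Runx1 against the mean of 12 neutrophil markers; all axes are log2(intensity + 1) and each point is 1 assigned array, coloured by genotype. 5XFAD arrays lie low on both axes of the left panel, while Trem2-/- arrays reach marker means of 7.17 with Maf at most 7.74; on the right, Trem2-/- 1 and Trem2-/-5XFAD 1 lie at the far end, near 5.9.

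Sall1 encodes the zinc finger factor that most sharply separates microglia from other brain macrophages. It read 10.21, 10.34, 10.30 and 10.54 in WT and 10.14, 10.28, 10.04 and 9.98 in Trem2-/-. In 5XFAD it read 9.47, 9.60, 9.15, 9.69 and 9.65. In Trem2-/-5XFAD it ranged from 9.45 to 10.13 with a median of 10.03. Every 5XFAD value was below every WT value. Of the 6 Trem2-/-5XFAD arrays, 5 lay above every 5XFAD array, and Trem2-/-5XFAD 2 lay among them. Sall1 fell by 0.84 ± 0.14 (SE) in 5XFAD against WT, 1.79-fold (limma, adjusted p = 1.8e-04). This call was kept under 36 of 37 alternatives. The exception was a fit restricted to arrays with Xist not above 7, with 1 WT array (difference -0.82). These arrays, chosen by Xist alone, are called arrays with Y-linked signal.

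In Trem2-/-5XFAD, Sall1 was 0.45 ± 0.12 (SE) higher than in 5XFAD (95% interval 0.19 to 0.71; limma, adjusted p = 0.0284). The difference stayed above 0.36 under all alternatives, but only 21 of 37 called it. Leaving out 5XFAD 1 or 3, or Trem2-/-5XFAD 1, 3, 4, 5 or 6, ended the call (0.36 to 0.44, limma adjusted p 0.0561 to 0.0931). Centring each array on its median also ended it (0.41, adjusted p = 0.0546), as did markers of other brain cells as a covariate (0.43, adjusted p = 0.130). Without Trem2-/-5XFAD 2 it was 0.55. Sall1 was lower in every Trem2-/-5XFAD array than in any WT array, as was the case for 2.68% of genes, yet the difference of -0.39 ± 0.13 did not pass (limma, adjusted p = 0.0985).

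Sall3, its paralogue, for which a role in microglia is less established, was measured at lower intensity. It ranged from 6.43 to 6.76 in WT, 6.42 to 6.58 in Trem2-/-, 6.23 to 6.75 in 5XFAD and 6.41 to 6.98 in Trem2-/-5XFAD. The groups overlapped throughout. The difference of 5XFAD from WT was -0.10, with a 95% interval from -0.37 to 0.16, which does not reach the change seen in Sall1 (-0.84). Its difference between Trem2-/-5XFAD and Trem2-/- was 0.26 ± 0.12 (limma, unadjusted p = 0.0477, adjusted p = 0.343).

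Mef2a and Mef2c encode MADS-box factors that bind the same AT-rich motif. Mef2a read 10.39, 10.60, 10.62 and 10.91 in WT and 10.84, 10.80, 10.75 and 10.90 in Trem2-/-. It read 10.04, 10.29, 10.14, 10.32 and 10.30 in 5XFAD. In Trem2-/-5XFAD it ranged from 10.26 to 10.71 with a median of 10.60. The 5XFAD arrays were below all WT arrays, and of the Trem2-/-5XFAD arrays only Trem2-/-5XFAD 2, at 10.26, lay within the 5XFAD range. Mef2a fell by 0.41 ± 0.11 (SE) in 5XFAD against WT, 1.33-fold (limma, adjusted p = 0.0155). The call was kept under 33 of 37 alternatives. It ended without WT 4 (-0.32, limma adjusted p = 0.0704) and in a fit of these groups alone (-0.41, adjusted p = 0.0608). It also ended with markers of other brain cells as a covariate and among arrays with Y-linked signal.

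Mef2a was 0.35 ± 0.10 (SE) higher in Trem2-/-5XFAD than in 5XFAD (limma, adjusted p = 0.0371). The value stayed between 0.31 and 0.45 under all alternatives, and 20 of 37 called it. Leaving out 5XFAD 1, 2 or 3, or Trem2-/-5XFAD 1, 3, 4, 5 or 6, ended the call (0.31 to 0.37, limma adjusted p 0.0559 to 0.121). Centring each array on its median also ended it (0.31, adjusted p = 0.0817). So did the sex signal as a covariate (0.33, adjusted p = 0.0649) and markers of other brain cells as a covariate (0.31, adjusted p = 0.195). Against WT, Mef2a in Trem2-/-5XFAD differed by -0.06 ± 0.11 (95% interval -0.29 to 0.17).

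Mef2c, which in microglia is described as a brake on inflammatory responses, ranged from 9.70 to 10.10 in WT, 9.92 to 10.12 in Trem2-/-, 9.65 to 10.06 in 5XFAD and 9.74 to 9.97 in Trem2-/-5XFAD. The groups overlapped. Its difference of 5XFAD from WT was -0.07, with a 95% interval from -0.29 to 0.15. The change of Mef2a minus that of Mef2c was not tested.

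The start-site sequences of Mef2a and Sall1 are shown because both were called in the same 2 comparisons, as was Maf. RefSeq windows (250 bases before to 50 after the start, build GRCm38.p6) were at hand for these 2 genes. Of the 9 members, 6 had windows that were searched, 12 in all; Maf, Spi1 and Sall3 are named only. Capitals mark matches, on either strand, to GAGGAA (bound by PU.1) and to CTA and TAG set 4 bases apart (bound by MEF2). TGCTGA (one arm of the MAF site), TGTGGT (RUNX), TTGC and AA set 2 bases apart (C/EBP) and GAAA repeated 2 bases apart (IRF) were also searched on both strands, and no matches overlapped in these windows. The Mef2a window lies at chr7:67372809-67373108 on the minus strand and the first of 3 Sall1 windows at chr8:89044113-89044412 on the minus strand.
Mef2a: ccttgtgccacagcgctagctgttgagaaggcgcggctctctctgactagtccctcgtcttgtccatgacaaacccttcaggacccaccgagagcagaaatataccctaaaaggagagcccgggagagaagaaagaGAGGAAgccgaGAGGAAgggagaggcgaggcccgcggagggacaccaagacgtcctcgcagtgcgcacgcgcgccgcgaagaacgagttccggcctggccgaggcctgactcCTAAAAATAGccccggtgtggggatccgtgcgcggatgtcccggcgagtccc
Sall1: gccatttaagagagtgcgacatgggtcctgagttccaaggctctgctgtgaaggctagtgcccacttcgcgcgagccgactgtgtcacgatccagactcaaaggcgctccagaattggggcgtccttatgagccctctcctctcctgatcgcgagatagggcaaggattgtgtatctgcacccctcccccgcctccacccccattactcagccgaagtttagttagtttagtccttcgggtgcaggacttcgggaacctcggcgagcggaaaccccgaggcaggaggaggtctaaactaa
The Mef2a window holds 2 GAGGAA and 1 MEF2 match, CTAAAAATAG, which begins 2 bases before the annotated start. Of 32851 windows of that length, 28.3% held GAGGAA and 3.69% held the MEF2 motif. The 3 Sall1 windows held none of the 6 motifs. Mef2c, whose level did not pass the test, held GAGGAA in 2 of its 3 windows. A match is a description of letters and no measure of binding.

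For the other lineage factors, Spi1, Irf8, Cebpa and Runx1, no difference between genotypes passed the test. Spi1 read 10.69, 10.88, 10.58 and 10.46 in WT and 10.43, 10.66, 10.54, 10.34 and 10.32 in 5XFAD. The groups overlapped. Its difference in 5XFAD was -0.19 ± 0.12 (95% interval -0.43 to 0.05, limma adjusted p = 0.315). A fall of the size seen in Maf or Sall1 lies outside the interval, but that of Mef2a (-0.41) lies inside it. Spi1 ranged from 10.58 to 10.84 in Trem2-/- and from 10.20 to 10.68 in Trem2-/-5XFAD. Among arrays with Y-linked signal the Spi1 difference of 5XFAD from WT was -0.42 and did not pass.

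Irf8, the partner of PU.1 that microglia need to mature, ranged from 9.25 to 9.55 in WT, 9.14 to 9.53 in Trem2-/-, 9.21 to 9.53 in 5XFAD and 8.90 to 9.72 in Trem2-/-5XFAD. The groups overlapped. The difference of 5XFAD from WT was 0.07, with a 95% interval from -0.22 to 0.35. The widest spread was among Trem2-/-5XFAD arrays, where Trem2-/-5XFAD 2 read 8.90 and Trem2-/-5XFAD 3 read 9.72.

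Cebpa, encoding the myeloid differentiation factor C/EBP alpha, ranged from 9.29 to 9.76 in WT, 9.26 to 9.67 in Trem2-/-, 9.13 to 9.69 in 5XFAD and 9.22 to 9.51 in Trem2-/-5XFAD. Its difference of 5XFAD from WT was -0.14 (95% interval -0.40 to 0.13), and the groups overlapped.

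Runx1, a factor of blood cell development that also marks young and reactive microglia, read 9.67, 9.60, 9.54 and 9.76 in WT and 10.08, 9.86, 9.86 and 9.84 in Trem2-/-. It read 9.45, 9.56, 10.07, 9.70 and 9.57 in 5XFAD and 9.46 to 10.01 in Trem2-/-5XFAD. All Trem2-/- arrays were above all WT arrays, which was the case for 3.10% of all tested genes, but the difference of 0.27 ± 0.13 did not pass (95% interval -0.00 to 0.54; limma, adjusted p = 0.412). The 3 highest Runx1 values, in Trem2-/- 1, 5XFAD 3 and Trem2-/-5XFAD 1, came from the arrays with the highest neutrophil marker mean of their group (5.88, 4.84 and 5.89). With the neutrophil markers as a covariate the Trem2-/- difference was 0.12. Neutrophils express Runx1; the part of such cells was not tested further.

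**Figure D3:**
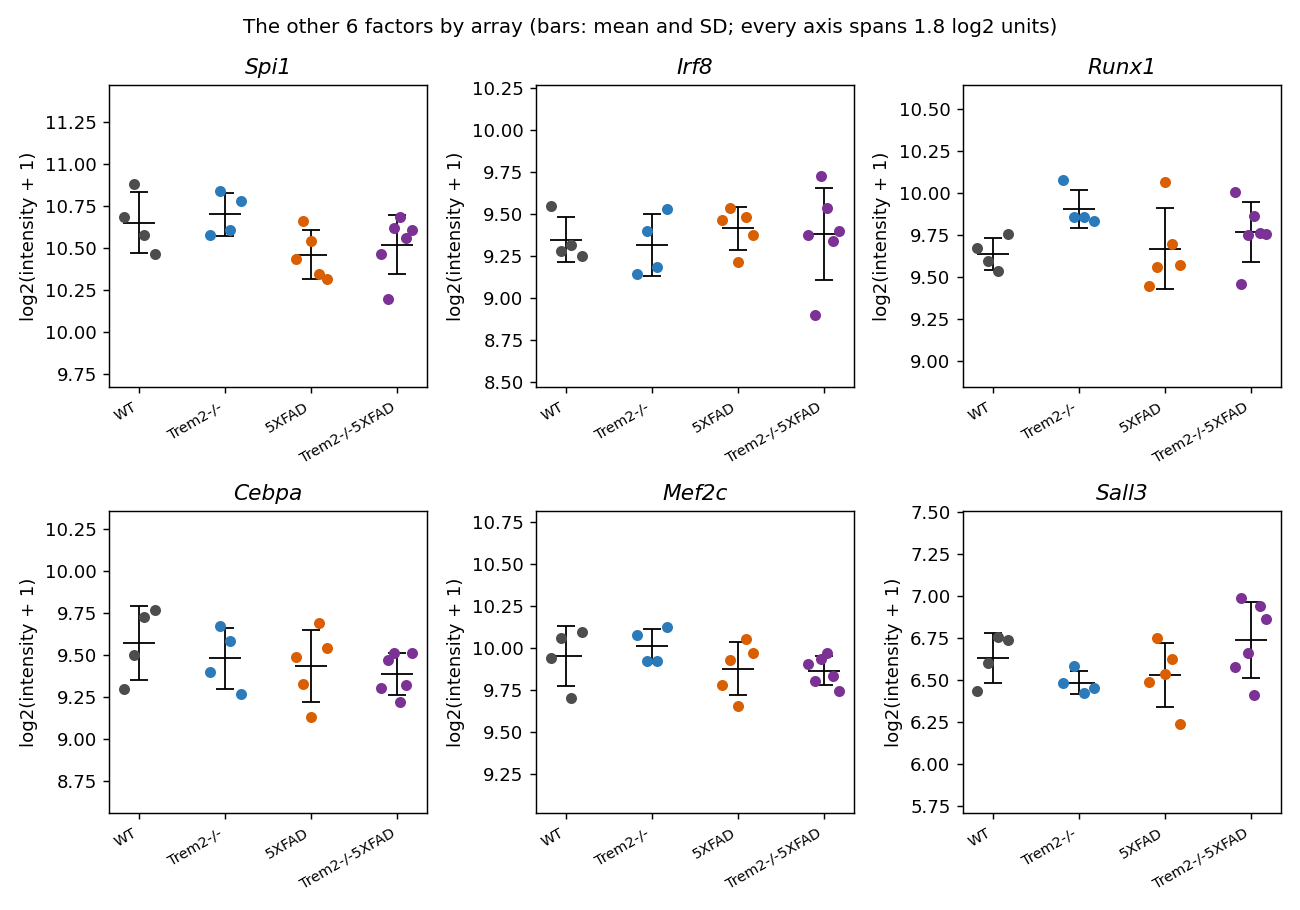
Level of the other 6 factors in each assigned array (points), on the log2(intensity + 1) scale, by genotype, with group mean and SD; every panel spans the same width of the scale. The genotypes overlap, except that the 4 Runx1 values of Trem2-/- (9.84 to 10.08) lie above those of WT (9.54 to 9.76).

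Without plaques, none of the 9 factors differed between Trem2-/- and WT (limma), and none had an unadjusted p under 0.05, where 0.613% of all genes were called, 0.385% higher and 0.228% lower. The differences ran from -0.24 in Sall1 to 0.27 in Runx1. For Maf the difference was -0.10 (95% interval -0.38 to 0.19) and for Mef2a 0.19 (-0.06 to 0.44).

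In mice that lack Trem2, the values for 5XFAD were closer to 0 for all 3 factors that fell in mice with Trem2. Between Trem2-/-5XFAD and Trem2-/-, 0 of 9 factors passed (limma), where 2.18% of all genes were called, 1.63% higher and 0.558% lower, and 3 had an unadjusted p under 0.05. The difference was -0.43 ± 0.12 for Maf (adjusted p = 0.0802) and -0.25 ± 0.11 for Mef2a (adjusted p = 0.299), both with every Trem2-/-5XFAD array below every Trem2-/- array. Groups that do not overlap in that direction were found for 2.06% of tested genes. The Maf difference passed without Trem2-/-5XFAD 5 (-0.49, limma adjusted p = 0.0464). Sall1 differed by -0.15 ± 0.13 (95% interval -0.43 to 0.13; adjusted p = 0.669). The third factor with an unadjusted p under 0.05 was Sall3, which was higher, as given above.

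The difference between these changes was tested as an interaction: the 5XFAD difference of the mice lacking Trem2 less that of the mice carrying it. Here 2.60% of all genes were called, 1.02% positive and 1.58% negative. For Maf it was 0.68 ± 0.18 (limma, adjusted p = 0.0472), the only factor of the 9 to pass. This call rested on the settings, since 10 of 36 alternatives kept it, with values from 0.53 to 0.95. Leaving out any 1 of 16 of the 19 arrays ended it (0.57 to 0.71, adjusted p 0.0515 to 0.0952); the exceptions were Trem2-/-5XFAD 1 and 2 and WT 4. For Sall1 the interaction was 0.69 ± 0.19 (adjusted p = 0.0597) and passed under 5 of 36 alternatives, among them the one without Trem2-/-5XFAD 2 (0.79, adjusted p = 0.00713). For Mef2a it was 0.17 ± 0.16 (95% interval -0.16 to 0.49; adjusted p = 0.707), so a weaker change of Mef2a in Trem2-/- mice was not shown by a test. For Spi1 it was 0.01 (95% interval -0.33 to 0.35).

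Compared with WT, Trem2-/-5XFAD microglia had a lower level of 1 of the 9 factors, Maf, with a difference of -0.53 ± 0.12 (limma, adjusted p = 0.0155). Of all genes 5.22% were called, 3.21% higher and 2.01% lower. That call ended without WT 2 (-0.42, adjusted p = 0.0598) and with neutrophil markers as a covariate (-0.45, adjusted p = 0.118). It also ended without WT 1, WT 2, 5XFAD 1 and 5XFAD 2, the arrays with the highest salivary gland means (-0.38, adjusted p = 0.174).

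**Figure D4:**
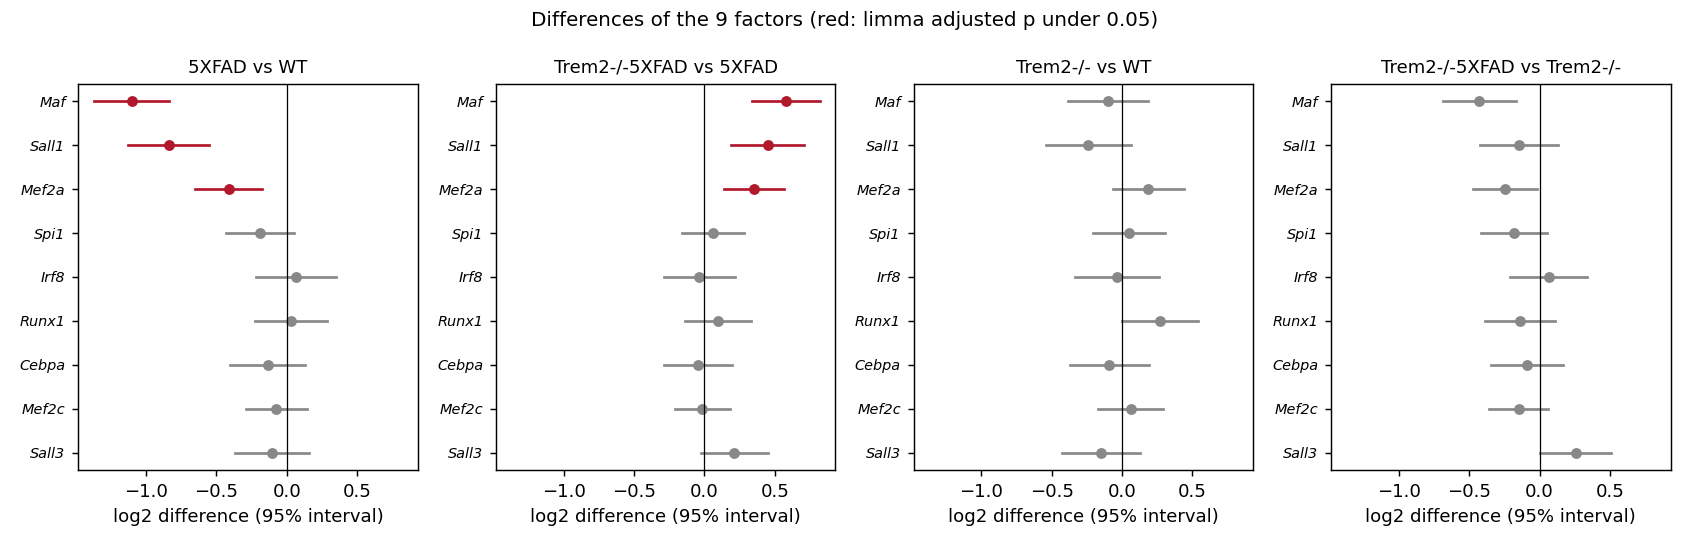
Log2 difference of each of the 9 factors (points) with 95% interval from limma, in 4 comparisons; red marks an adjusted p under 0.05 over 12728 genes. Maf, Sall1 and Mef2a are red and below 0 in 5XFAD vs WT (-1.10, -0.84 and -0.41), red and above 0 in Trem2-/-5XFAD vs 5XFAD (0.58, 0.45 and 0.35), and no factor is red in the other comparisons shown.

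Relatives of the 9 factors were examined from a list of 27 paralogues and partners, of which 23 were measured and 20 passed the filter on low values. In 5XFAD against WT, 2 were higher and 3 lower (limma), and the list's median difference was 0.01, against -0.02 over all tested genes. Cebpd, a C/EBP factor of acute responses, read 7.08 to 7.53 in WT and 5.92 to 6.52 in 5XFAD, without overlap, a difference of -1.05 ± 0.14 (adjusted p = 2.0e-05). Irf4 differed by -0.74 ± 0.15 at weak signal, with means of 4.32 in 5XFAD and 5.06 in WT. The 40th percentile of the arrays lay between 4.16 and 4.34, so the 5XFAD level was near that floor. Irf2, a repressor of interferon-driven genes, differed by -0.37 ± 0.11. Irf7, which drives type I interferon production, rose by 0.89 ± 0.17, and Maff, a small MAF protein that lacks an activation domain, by 0.85 ± 0.15 (adjusted p = 3.9e-04). Changes within a family thus differed in sign: Maf fell where Maff rose, and Irf8 did not pass where Irf7, Irf4 and Irf2 did.

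Of the 20 relatives, 2 were higher in Trem2-/-5XFAD than in 5XFAD and none lower (list median 0.03, all genes 0.04). Cebpd rose by 0.62 ± 0.13 and Irf4 by 0.61 ± 0.14 (limma, adjusted p = 0.00352 and 0.00591). For Irf4 this was again at weak signal, from a mean of 4.32 to 4.94. Irf7 and Maff, higher in 5XFAD, were also called higher in Trem2-/-5XFAD against WT, by 0.63 ± 0.17 and 0.53 ± 0.15. The inflammatory factor Cebpb differed by -0.59 ± 0.13 and Irf2 by -0.41 ± 0.10 between Trem2-/-5XFAD and Trem2-/-. No relative was called in Trem2-/- against WT. Irf1 was 0.76 ± 0.21 higher there, with every Trem2-/- array above every WT array, as for 3.10% of genes. This difference did not pass (limma, adjusted p = 0.127).

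**Figure D5:**
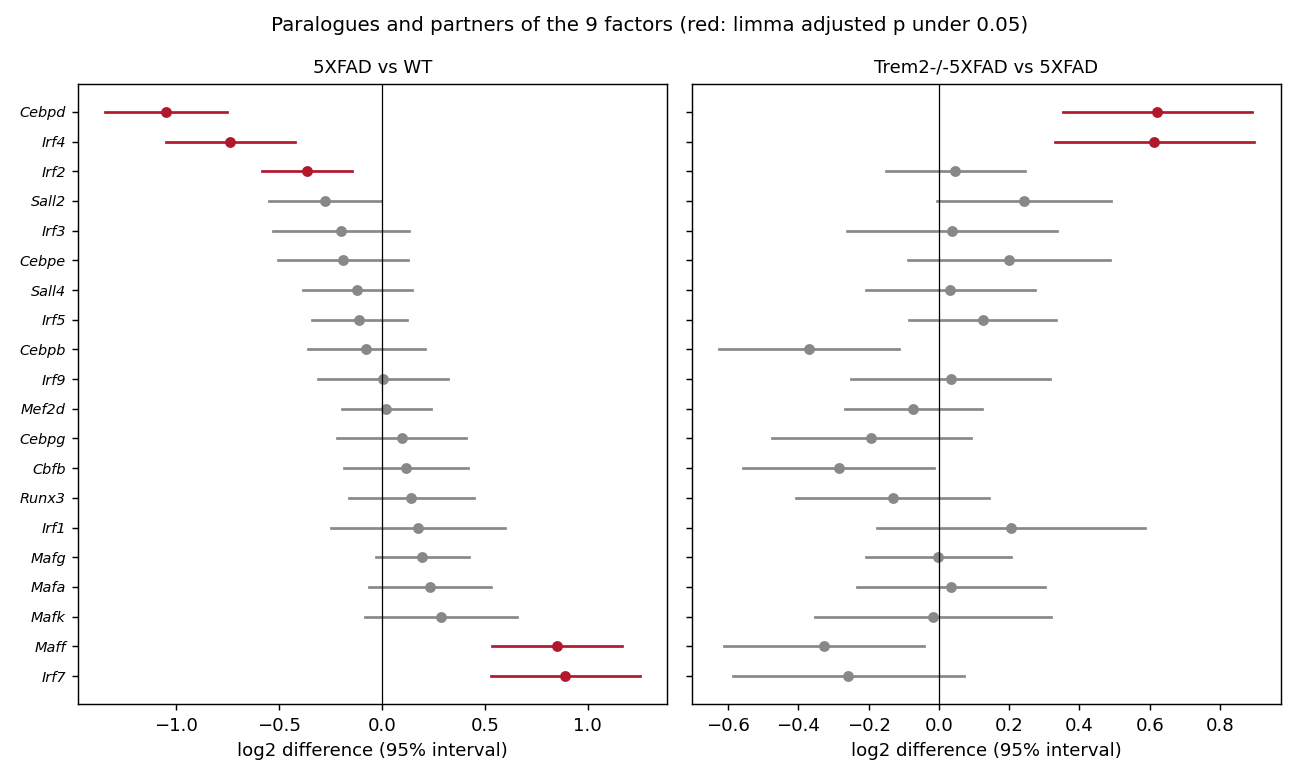
Log2 difference with 95% interval of the 20 tested paralogues and partners in 5XFAD vs WT (left) and Trem2-/-5XFAD vs 5XFAD (right), ordered by the left panel; red marks a limma adjusted p under 0.05. Cebpd and Irf4 are red on both sides with opposite signs, while Irf2, Maff and Irf7 are red on the left alone.

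Of 64 other transcription factors expressed in macrophages or microglia, 59 were tested; 7 were higher and 19 lower in 5XFAD against WT, with a median of -0.18 against -0.02 over all genes. The largest of these differences were those of Bhlhe40, a repressor of the clock family (4.28 ± 0.27), Hif1a, the oxygen-sensing factor (mean 9.70 against 8.19, 2.84-fold higher), and Klf2, a factor of quiescent cells (-1.01 ± 0.12). Bcl6, Fos and the haematopoietic factor Lyl1 followed, at 0.97 ± 0.32, -0.90 ± 0.15 and -0.85 ± 0.15. From 5XFAD to Trem2-/-5XFAD, 7 were higher and 4 lower, with a median of 0.13. Bhlhe40 fell by 3.75 ± 0.24 there and Hif1a by 0.79 ± 0.09, while Klf2 rose by 0.67 ± 0.11 (limma, adjusted p = 2.7e-04).

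Genes of the mature microglial signature, many of which are known to depend on Sall1 in mice, were examined beside the factors. Whether their changes here depend on Sall1 was not tested. In 5XFAD against WT, 17 of 19 tested genes were lower and none higher, with a median of -0.52, where 6.77% of all tested genes were lower. The lens crystallin gene Crybb1, a marker of mature microglia, fell by 1.55 ± 0.13, the fructose transporter Slc2a5 by 1.17 ± 0.12 and Adgrg1, an adhesion receptor, by 1.06 ± 0.10. There were 11 of 19 higher and none lower in Trem2-/-5XFAD than in 5XFAD (median 0.33), where 3.21% of all tested genes were higher. Crybb1 rose by 0.88 ± 0.12 and Adgrg1 by 0.72 ± 0.09. Earlier results of these data had shown this direction for homeostatic genes, and this list overlaps them.

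Genes commonly given as PU.1 targets in myeloid cells did not move one way. Of 21 tested, 5 were higher and 4 lower in 5XFAD against WT, with a median of -0.11. Cybb, a subunit of the phagocyte NADPH oxidase, ranged from 5.52 to 6.67 in WT and from 8.82 to 9.46 in 5XFAD, an 8.01-fold higher level. The GM-CSF receptor subunit Csf2ra rose by 1.10 ± 0.17 and the lipopolysaccharide co-receptor Cd14 by 0.84 ± 0.12. The kinase gene Syk differed by -0.38 ± 0.10 and Fcgr1, the high-affinity IgG receptor, by -0.37 ± 0.11. Between Trem2-/-5XFAD and 5XFAD 1 was higher, Syk, and 3 were lower, Cybb, Csf2ra and Cd14, with differences of -2.36 ± 0.19, -0.53 ± 0.15 and -0.51 ± 0.11.

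The genes whose values over the 19 arrays lay closest to each called factor were found by the root mean square difference after each gene was centred on its own mean. For Sall1 these were Sash3, Pld4 and Cmtm6, at 0.11, 0.11 and 0.14, where Sall1 itself had an SD of 0.36 over the arrays. For Mef2a, with an SD of 0.26, they were Inpp5d, Adap2 and Siglech, at 0.11, 0.12 and 0.12. For Maf, with an SD of 0.47, they were Cass4, Klf2 and Ggt5, at 0.18, 0.18 and 0.19. All of these genes share the genotype groups with the factor they resemble, and the measure favours genes of similar spread.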

How the data were processed

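RNA of sorted microglia was amplified to biotinylated cRNA from 2 ng of total RNA and hybridised to one-colour arrays, per the labels' protocols. The authors deposited intensity on a linear scale, with 24679 probe sets in each of 20 arrays; tool, summary method and normalization were not given in the sources used here. Column medians of 25.7 to 28.6 show a common scale. No 2 arrays were identical, and array correlations were 0.967 to 0.992. The number of arrays limits the precision, and no depth applies.

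Platform annotation gave 1 gene symbol for 21354 probe sets, several for 1275 and none here for 2050; symbols were updated through the RefSeq table of GRCm38.p6. The highest-mean probe set stood for a gene. Values were log2(intensity + 1); this understates folds at weak signal. Testing required that 4 or more assigned arrays read above their own 40th percentile. Group means of 19 arrays were fitted with limma 3.58.1 in R 4.3.3 and tested with Benjamini-Hochberg adjustment over 12728 genes, called at 0.05; every adjusted p in the text is from this fit or a named alternative. The fit was tested on simulated data. Errors beside differences are standard errors, and intervals are 95%. P-values measure the spread between arrays, since the labels call the animals littermates and say no more on independence. Members and lists were chosen with earlier results of these data known; named genes are the members, at most 6 called genes a list and comparison by size, and the 3 nearest genes. Some listed genes are not analysed here. Alternatives covered pseudocount, filter, scaling, variance moderation, groups, probe sets, the conflicting array, replicate block, sex signal, markers of other cells, the 4 arrays with the highest salivary gland means left out, and each array left out.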

Additional observations from a re-analysis of the deposited data

Results flagged for a closer look

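Sall1 in Trem2-/-5XFAD 2 stood apart from its group, at 9.45 where the other 5 arrays of the genotype lay 0.58 or more above it. The same array was also the lowest of its group for Mef2a (10.26), Spi1 (10.20), Irf8 (8.90) and Runx1 (9.46) and the highest for Sall3 (6.98). Runx1 in Trem2-/- 1 stood apart at 10.08, 0.22 above the next array of its group; that array held the highest neutrophil marker mean of the group (5.88). Of 36 gene and genotype pairs examined for such gaps 2 stood out, and chance alone marks about 1 in 20. The change of Maf with 5XFAD differed between mice without and with Trem2 by 0.68 on the log2 scale (limma, adjusted p = 0.0472), a call that most alternative settings ended.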

How the results depend on the processing

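The members called in 5XFAD against WT numbered 3, and 2 to 3 when each array was left out in turn; with arrays of Y-linked signal alone 1 was called, Maf. In Trem2-/-5XFAD against 5XFAD they numbered 3, and 1 to 3 with each array left out. There 1 was called, Maf, with arrays centred on the median, with the replicate block, among arrays with Y-linked signal, with neutrophil markers or markers of other brain cells as a covariate, without WT 1, WT 2, 5XFAD 1 and 5XFAD 2, and without Trem2-/- 1 and Trem2-/-5XFAD 1; 0 were called with border macrophage markers as a covariate. The last pair of settings was chosen after seeing the data. In Trem2-/-5XFAD against Trem2-/- 0 to 1 were called with each array left out, and in Trem2-/- against WT 0 throughout. In Trem2-/-5XFAD against WT the count of 1, with a range of 0 to 1 over arrays left out, became 0 in a fit of these groups alone, with the conflicting array in WT, among arrays with Y-linked signal, with the neutrophil covariate and without the same 4 arrays (WT 1, WT 2, 5XFAD 1, 5XFAD 2). In the interaction the count of 1, 0 to 2 over arrays left out, became 2 with a pseudocount of 16, quantile normalization, trended robust variances or the conflicting array in Trem2-/-. It became 0 with no filter on low values, median centring, the conflicting array in WT, the replicate block, sex as a covariate, arrays with Y-linked signal, either covariate of other cells, the border macrophage covariate and without those 4 arrays. The fit of Y-linked arrays alone had 1 WT and 1 Trem2-/- array, assumed to vary like the others; otherwise the cause of these changes was not tested. Replicate numbers in the titles are shared between groups, and the main fit did not pair arrays by them. Deviations from group means correlated between -0.104 and 0.166 in 25 same-numbered pairs (median 0.013). In 109 others they correlated between -0.172 and 0.184. Some structure was nevertheless shared between groups. WT 1 and 2 correlated with 5XFAD 1 and 2 at 0.104 to 0.161. WT 3 and 4 correlated with 5XFAD 3, 4 and 5 at 0.075 to 0.166. Across these sets the values ran from -0.169 to 0.004. WT 1, WT 2, 5XFAD 1 and 5XFAD 2 had the highest salivary gland means. The source of this structure was not tested. Of all genes, 1909 were called in 5XFAD against WT and 856 to 2043 over the alternatives; 977 and 416 to 1089 in Trem2-/-5XFAD against 5XFAD; 78 and 11 to 271 in Trem2-/- against WT. The other counts were 278 and 118 to 411 against Trem2-/-, 664 and 251 to 771 against WT, and 331 and 61 to 383 in the interaction. Of 8 called differences none changed sign under any alternative run, though many alternatives cannot move a given difference. Of 46 differences that did not pass, 44 passed under no alternative, and the sign turned in 83 of 1694 refits. Sall3 and Maf were the dimmest members, with means of 6.61 and 7.30, though above the 40th percentile on all 19 assigned arrays. Whether intensity limits their results was not tested.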

Other observations

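The array titled as WT but labelled with the genotype Trem2-/- was put in no group. Its Trem2 value was 11.08, where Trem2-/- arrays read 6.84 to 7.02 and WT arrays 11.14 to 11.39. Its levels were 10.11 for Sall1, 10.90 for Mef2a, 7.29 for Maf, 10.69 for Spi1, 9.08 for Irf8, 9.57 for Runx1, 9.42 for Cebpa, 10.01 for Mef2c and 6.55 for Sall3. Its Maf and Irf8 values lay below every WT and Trem2-/- array, although its border macrophage marker mean was 7.03. Its Sall1 value lay within the range of Trem2-/- and below that of WT. Its Runx1 value lay within the range of WT and below that of Trem2-/-.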
